A study of Mus musculus with 24 samples.

Results

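Transcripts that mark neutrophils were followed through 4 genotypes in whole liver and in isolated hepatocytes: S100a8, S100a9, Csf3r, Ngp, Camp, Ltf and Mmp8. These 7 genes were chosen by name, with earlier results of these data known. All 7 had a row among the 24319 genes of each deposited table. The members were highest in livers that lacked both Shp2 and IkkB in hepatocytes, where S100a8, S100a9 and Csf3r rose more than 2-fold against WT. In isolated hepatocytes, a table made separately, 3 of the 7 could be tested and only Csf3r had an authors' q-value under 0.05.

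Neutrophils are short-lived white blood cells that patrol blood and tissue and kill microbes with the contents of their granules. Granules are filled in sequence while the cell matures in the bone marrow: primary granules with proteases and myeloperoxidase come early, secondary granules with lactoferrin and cathelicidin follow, and tertiary granules with gelatinase come late. The cytokine G-CSF drives this maturation through its receptor, and chemokines such as Cxcl1 draw mature cells into an inflamed liver, where they gather in the sinusoids. In a bulk RNA sample such as these, fewer neutrophils and less RNA per neutrophil cannot be told apart.

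The study sequenced polyA RNA of male C57/BL6 mice aged 2 months, as 24 samples in 8 groups of 3 biological replicates: 4 groups from whole liver and 4 from purified hepatocytes. The Double KO groups were Alb-Cre+;IkkBf/f;Shp2f/f, the Shp2 KO groups Alb-Cre+;Shp2f/f, the IkkB KO groups Alb-Cre+;IkkBf/f, and the WT groups wild type, with no Cre or floxed allele given for them. The albumin promoter drives Cre in hepatocytes, so by design the floxed genes are removed from these cells and not from neutrophils. Shp2 (gene Ptpn11) is a phosphatase through which receptors switch on Ras and Erk, while IkkB (gene Ikbkb) is the kinase that releases NF-κB; the series title asks what happens when both pathways are disrupted together. The authors' Cuffdiff tables give 1 value per gene and genotype, FPKM by that program's convention (fragment counts corrected for the length of the transcript and the size of the library), so no SD can be given and sequencing depth is unknown. In the text a gene "rose" or "fell" only if its q-value in the authors' deposited table was under 0.05 and its value reached 0.1 in 1 of the 2 genotypes.

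Both targeted transcripts were reduced where the labels say so. In whole liver Ikbkb was 6.31 in Double KO, 14.2 in Shp2 KO and 9.48 in IkkB KO, against 15.7 in WT, and Ptpn11 was 6.09 in Double KO, 4.09 in Shp2 KO and 10.1 in IkkB KO, against 12.5 in WT. The 2 tables were made separately, so differences were tested only within a table.

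The members fall into 3 roles. S100a8 and S100a9 encode calcium-binding proteins that pair to form calprotectin, the most abundant protein complex of the neutrophil cytosol, and lie next to each other on chromosome 3. Csf3r encodes the G-CSF receptor. Ngp, Camp, Ltf and Mmp8 encode secondary granule proteins: neutrophilic granule protein, the antimicrobial cathelicidin, the iron-binding lactoferrin and a collagenase, with all 4 genes on chromosome 9. The upstream 250 bases are printed for the pairs S100a8 with S100a9 and Ngp with Camp, since each of these genes was closest in pattern to the other of its pair. The sequences come from RefSeq on build GRCm38.p6, while the deposited tables were made on mm9, and all 7 members matched by symbol. Each ends at the base before the annotated start, reads 5′ to 3′ on the gene's own strand, and has the motif matches named after it in capitals.
S100a8, chr3:90668821-90669070, plus strand: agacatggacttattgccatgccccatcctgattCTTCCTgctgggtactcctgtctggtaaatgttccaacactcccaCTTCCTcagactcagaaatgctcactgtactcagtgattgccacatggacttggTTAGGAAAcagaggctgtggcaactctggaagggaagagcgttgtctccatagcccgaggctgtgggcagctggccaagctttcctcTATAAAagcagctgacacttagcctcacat
S100a9, chr3:90695722-90695971, minus strand: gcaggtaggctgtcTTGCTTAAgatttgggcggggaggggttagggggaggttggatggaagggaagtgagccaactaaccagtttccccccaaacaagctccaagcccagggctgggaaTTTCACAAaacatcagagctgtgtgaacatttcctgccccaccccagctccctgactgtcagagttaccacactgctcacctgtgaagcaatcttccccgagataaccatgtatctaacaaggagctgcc
Ngp, chr9:110419558-110419807, plus strand: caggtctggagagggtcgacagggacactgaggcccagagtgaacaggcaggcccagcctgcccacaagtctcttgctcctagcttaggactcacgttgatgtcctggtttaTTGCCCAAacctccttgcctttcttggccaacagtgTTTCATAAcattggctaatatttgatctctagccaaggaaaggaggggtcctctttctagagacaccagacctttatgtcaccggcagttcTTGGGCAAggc
Camp, chr9:109849457-109849706, minus strand: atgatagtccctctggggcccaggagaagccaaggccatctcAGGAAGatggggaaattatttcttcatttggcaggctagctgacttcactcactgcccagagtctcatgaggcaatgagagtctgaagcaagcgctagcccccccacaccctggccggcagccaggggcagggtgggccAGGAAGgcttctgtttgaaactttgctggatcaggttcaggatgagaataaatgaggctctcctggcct
Motifs were searched on both strands in this window: TATAAA for the TATA box, AGGAAG for the core bound by PU.1 and other Ets factors, TTNNGNAA (N is any base) for C/EBP factors and, for NF-κB, GGG followed by 2 free bases, TT, 1 free base and CC. TATAAA was in 1 of 7 members, S100a8, at positions -30 to -25 from the start, and in 12.4% of 32851 promoters. AGGAAG was in 5 of 7 members and in 29.5% of all promoters, with 4 matches before Csf3r. TTNNGNAA was in 5 of 7 members and in 36.8% of all promoters, with 3 matches before Ngp, of which the nearest spans -11 to -4. The NF-κB motif was in 0 of 7 members and in 4.11% of all promoters, and no matches of different motifs overlapped in the windows shown. A match describes letters only and is not evidence of binding.

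Both calprotectin genes were highest in Double KO liver. S100a8 was 14.1 in Double KO, 4.67 in Shp2 KO and 2.17 in IkkB KO, against 5.70 in WT liver. S100a9 was 13.01 in Double KO, 4.79 in Shp2 KO and 4.07 in IkkB KO, against 5.32 in WT liver. For each gene the Double KO value was more than 2 times that of WT, the next genotype in order, and IkkB KO was the lowest. Against WT, S100a8 rose 2.46-fold in Double KO (q = 0.0138, authors' deposited table). S100a9 rose 2.44-fold in that comparison (q = 0.00175, authors' deposited table). Against the single knockouts the log2 fold changes of S100a8 were 1.59 over Shp2 KO and 2.69 over IkkB KO, and those of S100a9 were 1.44 and 1.68, each with q = 0.000955, the smallest q of the authors' deposited table.

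In IkkB KO liver one calprotectin gene passed the threshold and the other did not. S100a8 fell 2.63-fold against WT, with q = 0.0318 in the authors' deposited table. S100a9 had a log2 fold change of -0.39 in the same comparison (q = 0.598, authors' deposited table). The S100a8 call rests on an adjustment made over all 6 pairs of genotypes, and the same p-values adjusted within this comparison gave 0.0901. The ratio of S100a8 to S100a9 was 0.534 in IkkB KO liver, against 1.08 in Double KO, 0.975 in Shp2 KO and 1.07 in WT liver. That unequal change was not tested.

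Csf3r, the receptor gene, was also highest in Double KO liver. Csf3r was 1.41 in Double KO, 0.747 in Shp2 KO and 0.834 in IkkB KO, against 0.662 in WT liver, so WT was the lowest genotype. It rose 2.13-fold in Double KO against WT (q = 0.00175, authors' deposited table). Over the single knockouts its log2 fold changes were 0.92 over Shp2 KO (q = 0.0129) and 0.76 over IkkB KO (q = 0.0484) in the authors' deposited table. The single knockouts were not called against WT, with q = 0.855 for Shp2 KO and 0.611 for IkkB KO in the authors' deposited table.

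The granule genes were scarce in every liver and highest in Double KO. Ngp was 0.792 in Double KO, 0.151 in Shp2 KO and 0.129 in IkkB KO, against 0.0253 in WT liver. Camp was 0.690 in Double KO, 0.0746 in Shp2 KO and 0.198 in IkkB KO, against 0.0218 in WT liver. For both genes WT was lowest, the single knockouts lay between, and the Double KO value was far above them. Ngp rose in Double KO against Shp2 KO (5.23-fold, q = 0.0152) and against IkkB KO (6.15-fold, q = 0.0161) in the authors' deposited table. Camp rose 9.26-fold against Shp2 KO (q = 0.0386), and its 3.49-fold difference from IkkB KO was not called (q = 0.144, authors' deposited table). Against WT both ratios were larger, 31.3 for Ngp and 31.7 for Camp, yet neither was called (q = 0.577 and 0.450 in the authors' deposited table). With 0.1 added to both values the log2 fold changes against WT were 2.83 for Ngp and 2.698 for Camp, in place of 4.97 and 4.99. Each ratio sets less than 1 FPKM over a WT value of a few hundredths, and only the Double KO pairs reached the program's minimum for testing these 2 genes in liver.

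Ltf and Mmp8 were too low for a test in any pair. Ltf was 0.291 in Double KO, 0.0375 in Shp2 KO and 0.0444 in IkkB KO, against 0.0252 in WT liver. Mmp8 was 0.157 in Double KO, 0.0858 in Shp2 KO and 0.0204 in IkkB KO, against 0.0337 in WT liver. Double KO was the highest genotype for both, as for the other 5 members.

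**Figure D1:**
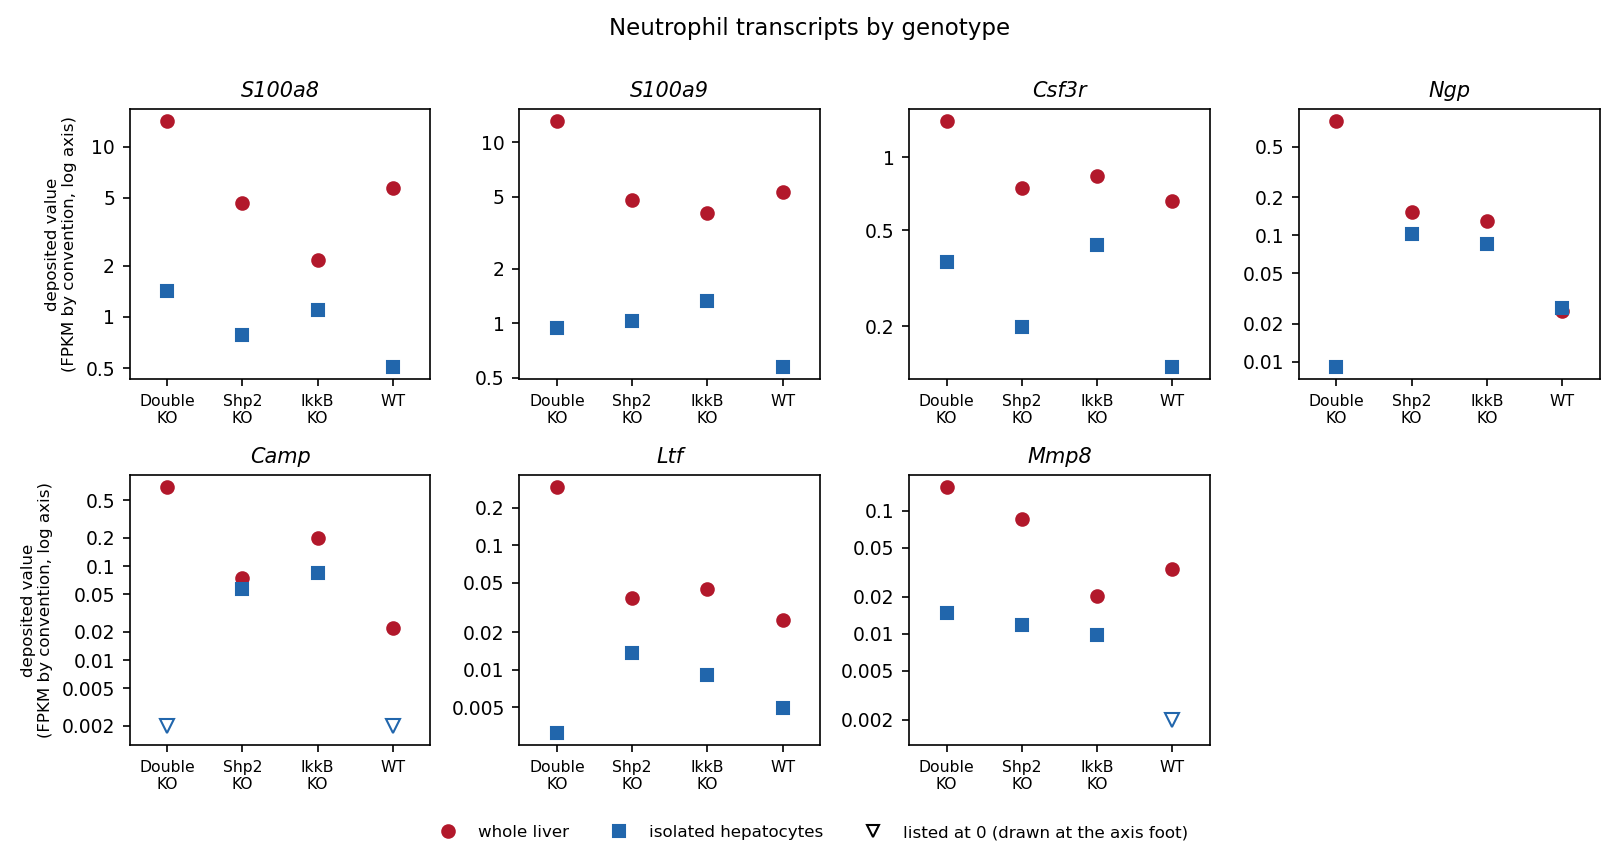
Deposited value (FPKM by convention, log axis) of each of the 7 neutrophil transcripts in Double KO, Shp2 KO, IkkB KO and WT, with 1 point per genotype for whole liver (circles) and isolated hepatocytes (squares); open triangles mark a gene listed at 0. In whole liver Double KO is the highest genotype for all 7 genes, and in isolated hepatocytes it is not the highest for S100a9, Csf3r, Ngp, Camp and Ltf.

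In whole liver, 5 of the 7 members were tested in each Double KO comparison and 3 in each other comparison. The shares below are of tested genes only. Counted over all 7 members in whole liver, 3 rose and 0 fell in Double KO against WT, where 11.5% of the 12940 genes tested rose. The median log2 fold change of the 7 was 2.21, which is the value of Mmp8, an untested gene, and that of all genes tested was -0.04. With 0.1 added to every value, an alternative chosen after seeing the data, the medians were 1.29 for the 7 and -0.04 for all genes tested. In Double KO against Shp2 KO 5 of 7 rose, where 7.94% of all genes tested did, and in Double KO against IkkB KO 4 of 7 rose, where 11.5% did. These comparisons share the Double KO libraries and are not independent of each other. Ngp, counted against both single knockouts, and Camp, counted against Shp2 KO, were tested only in pairs with Double KO, where they were highest. Their part in these counts therefore depends on the testing minimum. S100a8, S100a9 and Csf3r were tested in every liver pair and rose against both single knockouts. In IkkB KO against WT 1 of 7, S100a8, fell, where 2.17% of the 12484 genes tested fell. In Shp2 KO against WT Cuffdiff called 0 of 7 members, and 0 had an unadjusted p under 0.05; 9.33% of all genes tested were called in either direction. In Shp2 KO against IkkB KO 0 of 7 were called and 1, S100a8, had an unadjusted p under 0.05 (log2 fold change 1.11, q = 0.113 in the authors' deposited table), beside 10.3% called of all genes.

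In whole liver the Double KO change was set beside the sum of both single log2 fold changes against WT, as values with no test. For S100a8 it was 1.30 in Double KO, and the single changes summed to -1.68. For S100a9 the 2 numbers were 1.29 and -0.54, so for calprotectin the single knockout values lay on the other side of WT from the Double KO value. Of these single changes only S100a8 in IkkB KO was called, and it was not when adjusted within that comparison. The others were not distinguished from WT. For Csf3r they were 1.09 and 0.51. For Ngp they were 4.97 and 4.93 and for Camp 4.99 and 4.96, but the single changes of both were untested ratios over very low WT values. With 0.1 added to every value they were 2.83 and 1.87 for Ngp and 2.698 and 1.81 for Camp, so the near equality was lost. Without that addition they were 3.53 and 1.40 for Ltf and 2.21 and 0.62 for Mmp8. In isolated hepatocytes the Double KO change lay below the sum for every member with a ratio in all genotypes. There the 2 numbers were 1.47 and 1.74 for S100a8, 0.71 and 2.04 for S100a9 and 1.44 and 2.22 for Csf3r. They were -1.55 and 3.57 for Ngp and -0.66 and 2.34 for Ltf, both from very low values. These differences were not tested either.

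**Figure D2:**
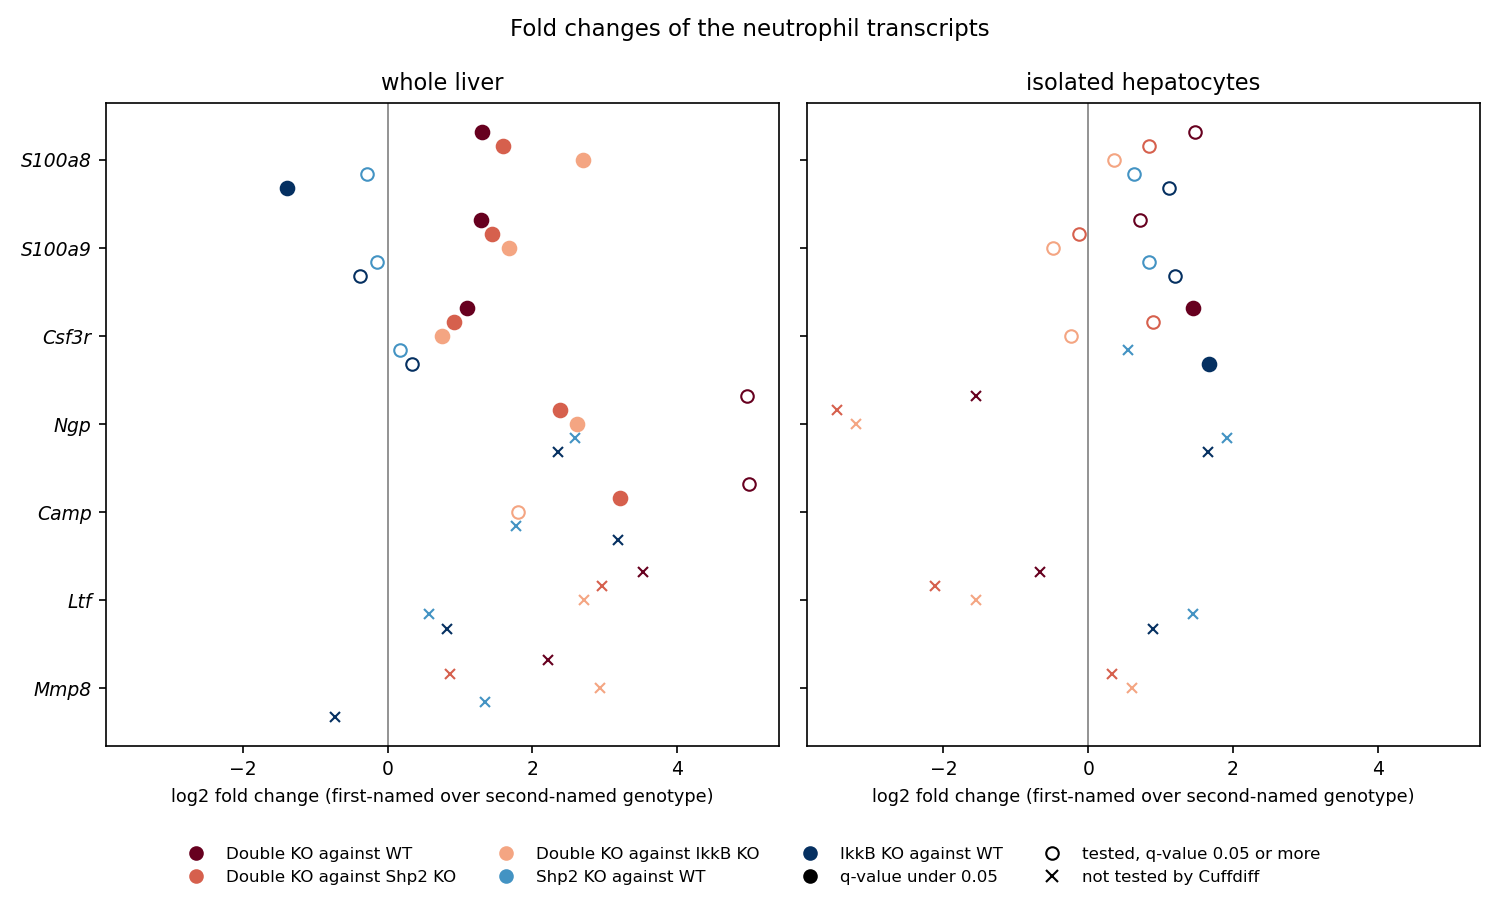
Log2 fold change (first-named over second-named genotype, horizontal axis) of each member in 5 comparisons per table, filled where the authors' q-value is under 0.05, open where tested and not called, and crosses where not tested by Cuffdiff; ratios with a value listed at 0 are not drawn. In whole liver the filled points of S100a8, S100a9 and Csf3r lie right of 0 in all 3 Double KO comparisons, and the only filled point left of 0 is S100a8 in IkkB KO against WT at -1.39.

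In isolated hepatocytes WT was the lowest genotype for the 3 genes that could be tested. S100a8 was 1.41 in Double KO, 0.787 in Shp2 KO and 1.10 in IkkB KO, against 0.510 in WT hepatocytes. S100a9 was 0.946 in Double KO, 1.03 in Shp2 KO and 1.33 in IkkB KO, against 0.577 in WT hepatocytes. Neither gene was called in any comparison of the hepatocyte table; in Double KO against WT the authors' deposited table gives q = 0.226 for S100a8 and 0.718 for S100a9. Csf3r was 0.369 in Double KO, 0.198 in Shp2 KO and 0.433 in IkkB KO, against 0.136 in WT hepatocytes. It rose 3.19-fold in IkkB KO against WT (q = 0.00499) and 2.71-fold in Double KO against WT (q = 0.0166) in the authors' deposited table, and was not tested in Shp2 KO against WT.

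The granule genes were at or near 0 in the hepatocyte preparations. Ngp was 0.00917 in Double KO, 0.101 in Shp2 KO and 0.0846 in IkkB KO, against 0.0269 in WT hepatocytes. Camp was listed at 0 in Double KO hepatocytes, was 0.0564 in Shp2 KO and 0.0834 in IkkB KO, and was listed at 0 in WT. Ltf ranged from 0.00314 to 0.0136 and Mmp8 from 0 to 0.0148 over the 4 genotypes. None of these 4 genes was tested in hepatocytes, and the Double KO value of Ngp and Ltf was the lowest of the genotypes, where in whole liver it was the highest.

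In hepatocytes 1 of 7 members, Csf3r, rose in IkkB KO against WT, where 7.6% of 12135 genes tested rose. In Double KO against WT 1 of 7, again Csf3r, rose, where 9.04% of 12174 genes tested did. Cuffdiff called 0 of 7 members in Shp2 KO against WT (11.7% of all genes called in either direction), in Double KO against IkkB KO (11.4%) and in Double KO against Shp2 KO (6.76%), and in each of these 0 members had an unadjusted p under 0.05. In these comparisons 3 members were tested, or 2 in Shp2 KO against WT, while the shares count tested genes only. So few tests cannot place the members above or below these shares.

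The summed value of the 7 members was 30.4 in Double KO, 10.6 in Shp2 KO and 7.46 in IkkB KO, against 11.8 in WT liver. In hepatocytes it was 2.75 in Double KO, 2.20 in Shp2 KO and 3.05 in IkkB KO, against 1.25 in WT. Calprotectin made up 83.6% to 93.5% of the sum in liver and 79.7% to 86.6% in hepatocytes, so the sum is mostly these 2 genes.

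Among other neutrophil genes of whole liver, primary granule genes other than Prtn3 were near 0. Prtn3, proteinase 3, was 7.77 in Double KO, 0.998 in Shp2 KO and 0.357 in IkkB KO, against 1.16 in WT liver, and rose in Double KO against each of these (q = 0.000955, authors' deposited table). Elane, neutrophil elastase, was 0.0912 in Double KO and 0.118 in WT liver, and was not tested. Mpo, myeloperoxidase, was 0.0700 in Double KO and 0.0232 in WT liver, and was not tested either. Prtn3 did not follow the members in hepatocytes, where it was 1.30 in Double KO, 3.69 in Shp2 KO and 0.316 in IkkB KO, against 1.39 in WT. It rose in Shp2 KO hepatocytes (q = 0.0265) and fell in IkkB KO hepatocytes (q = 0.00961) against WT in the authors' deposited table.

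Of 12 further secondary and tertiary granule or membrane genes, 8 were tested in Double KO against WT liver, 5 rose and 0 fell, with a median log2 fold change of 1.4995 over those tested. Mmp9, gelatinase B, was 0.585 in Double KO, 0.203 in Shp2 KO and 0.169 in IkkB KO, against 0.198 in WT liver, and rose in Double KO against WT (q = 0.00503, authors' deposited table). Lcn2, lipocalin 2, was 131 in Double KO, 32.6 in Shp2 KO and 11.9 in IkkB KO, against 23.7 in WT liver. Hepatocytes also make lipocalin 2, and in the hepatocyte table Lcn2 was 26.1 in Double KO, 237 in Shp2 KO and 8.51 in IkkB KO, against 56.3 in WT, an order unlike that of the members. Lyz2, lysozyme, and Cybb, the catalytic subunit of the phagocyte NADPH oxidase, also rose in Double KO against WT liver (both q = 0.000955, authors' deposited table). Lyz2 was 124 in Double KO and 36.0 in WT liver, and Cybb was 6.90 in Double KO and 2.21 in WT liver. Monocytes and macrophages express both of these genes.

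Of 28 mature neutrophil genes with a row, 13 were tested in Double KO against WT liver, 4 rose and 0 fell, with a median log2 fold change of 1.16. The 4 were Slfn4, a Schlafen family gene, Itgam, the CD11b integrin, Pilra, an inhibitory receptor, and Fpr1, the receptor for formylated peptides. The part of monocytes and macrophages in these 4 rises was not tested. Fpr1 was 4.91 in Double KO, 2.71 in Shp2 KO and 2.99 in IkkB KO, against 2.16 in WT liver (q = 0.00248 for Double KO against WT, authors' deposited table). Cxcr2, the chemokine receptor that defines mature neutrophils, was only 0.142 in Double KO, 0.103 in Shp2 KO and 0.0436 in IkkB KO, against 0.0623 in WT liver, and was not tested against WT. Ly6g, the usual surface marker, was looked for by symbol and no row was found. Of the list, 5 genes were listed at 0 in Double KO liver and 6 in WT liver.

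Cxcl1, a chemokine that recruits neutrophils, was highest in WT liver, unlike the members. Cxcl1 was 8.15 in Double KO, 5.16 in Shp2 KO and 4.16 in IkkB KO, against 19.4 in WT liver, and fell in all 3 knockouts against WT (q = 0.000955, authors' deposited table). Among the 3 knockout livers its order was that of S100a8 and S100a9. In hepatocytes Cxcl1 was 5.93 in Double KO, 14.8 in Shp2 KO and 3.90 in IkkB KO, against 32.2 in WT, and fell in all 3 there too (q from 0.00048 to 0.00263, authors' deposited table). Cxcl2 was 0.353 in Double KO and 0.401 in WT liver and was not called (q = 0.940, authors' deposited table). Cxcl5 was 0.195 in Double KO and 0.0239 in WT liver and was not tested, and Csf3, the gene for G-CSF, was listed at 0 in both. Icam1, a ligand of neutrophil integrins, rose to 9.28 in Double KO liver, against 5.44 in WT liver (q = 0.00175, authors' deposited table). In hepatocytes Icam1 was 6.11 in Double KO, 9.45 in Shp2 KO and 4.26 in IkkB KO, against 3.25 in WT. Of the 14 ligand and adhesion genes 7 were tested in Double KO against WT liver, 1 rose and 1 fell.

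Transcription factors of granulocyte maturation were split. Spi1, which encodes PU.1, was 10.5 in Double KO, 4.91 in Shp2 KO and 4.81 in IkkB KO, against 3.48 in WT liver, and rose in Double KO against WT (q = 0.000955, authors' deposited table). Cebpe, which drives secondary granule genes in maturing neutrophils, was 1.25 in Double KO, 6.89 in Shp2 KO and 6.21 in IkkB KO, against 5.40 in WT liver. It thus fell in Double KO liver against each other genotype (q = 0.000955, authors' deposited table), where the granule genes Ngp, Camp and Ltf were highest. Cebpe was also 5.77 in Double KO, 10.7 in Shp2 KO and 1.65 in IkkB KO, against 7.84 in WT hepatocytes, well above the granule genes there. Cebpa was 231 and Cebpb 48.1 in WT hepatocytes. Values of these factors in whole liver thus need not come from granulocytes, and their cell source was not tested. Of 6 factors tested in Double KO against WT liver 3 rose, Spi1, Runx1 and Cebpd, and 1 fell. Of the 4 genes listed as receptors of the calprotectin subunits, 2 rose in Double KO against WT liver. Tlr4, a sensor of bacterial lipopolysaccharide, was 0.687 in Double KO and 0.261 in WT liver (q = 0.00620, authors' deposited table). Cd33, a sialic acid receptor of myeloid cells, was 0.372 in Double KO and 0.149 in WT liver (q = 0.0493, authors' deposited table).

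**Figure D3:**
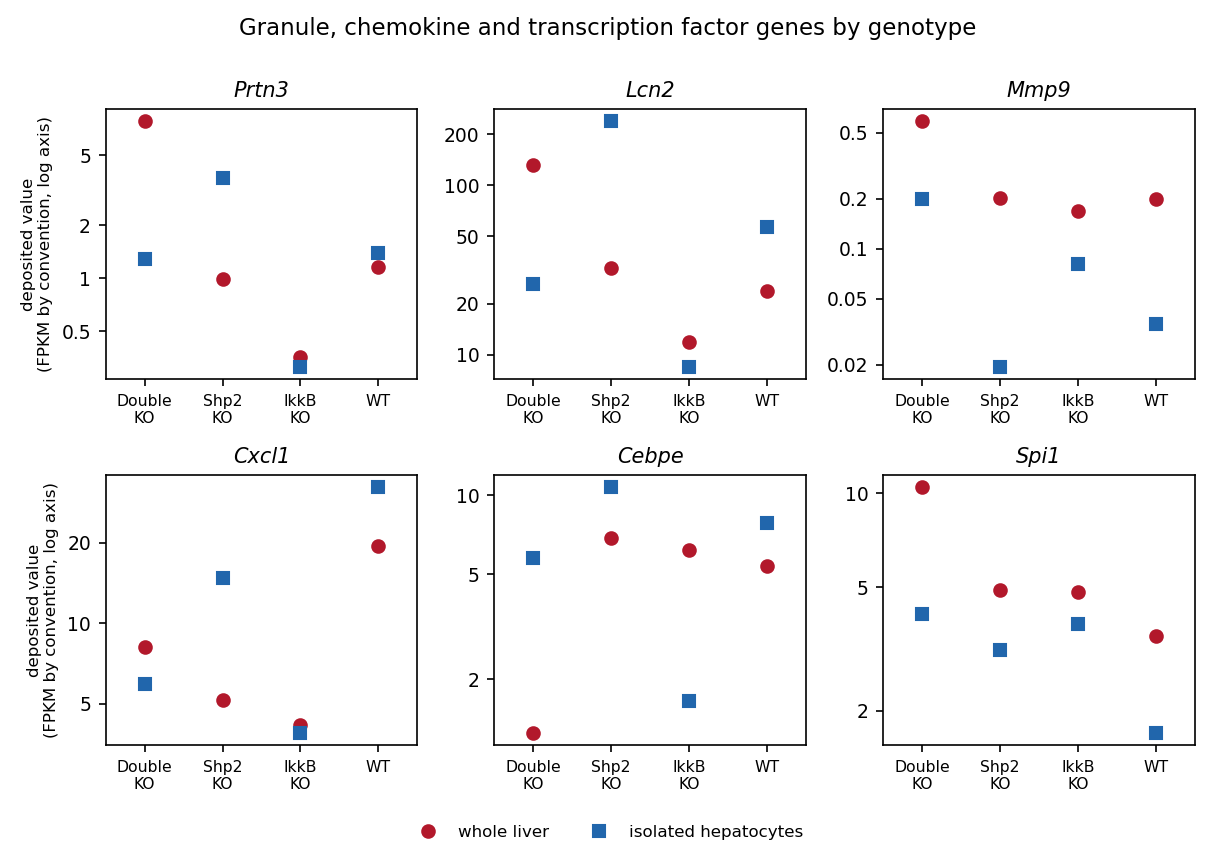
Deposited value (FPKM by convention, log axis) of 3 granule genes (Prtn3, Lcn2, Mmp9), the chemokine Cxcl1 and the transcription factors Cebpe and Spi1 by genotype, with 1 point per genotype for whole liver (circles) and isolated hepatocytes (squares). Prtn3, Lcn2, Mmp9 and Spi1 are highest in Double KO among the livers, Cxcl1 is highest in WT at 19.4, and Cebpe is lowest in Double KO at 1.25.

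Markers of other blood and liver cells moved in the same livers. Of 13 macrophage and Kupffer cell genes 11 rose and 0 fell in Double KO against WT liver, and their summed value was 671 in Double KO, 338 in Shp2 KO and 343 in IkkB KO, against 254 in WT, with 0 of 13 listed at 0. Of 8 monocyte genes 7 were tested, 6 rose and 0 fell, and their sum was 50.0 in Double KO, 22.0 in Shp2 KO and 24.5 in IkkB KO, against 19.4 in WT liver, with 0 of 8 listed at 0. Monocytes express S100a8, S100a9 and Csf3r as well, at lower levels than neutrophils. The part of macrophages and monocytes in the members' differences was not tested.

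Lymphocyte genes were not called in Double KO against WT liver but were in part against the single knockouts. Of 9 T and NK cell genes tested in Double KO against WT liver 0 were called and 3 had an unadjusted p under 0.05, and of 6 B cell genes tested 0 were called and 1 did. In Double KO against Shp2 KO liver, 2 of 9 T and NK cell genes tested rose and 0 fell (median log2 fold change 1.10). Of 5 B cell genes tested there 2 rose and 0 fell (median 0.83), and both lists moved in the direction of the members. In Double KO against IkkB KO liver, 4 of 10 T and NK cell genes tested fell and 0 rose, opposite to the members. Of 5 B cell genes tested in that comparison 0 were called. In Shp2 KO against WT liver, 1 of 8 T and NK cell genes and 2 of 6 B cell genes tested fell. Of all genes tested there 9.33% were called in either direction. The share of all genes that fell was not counted for either comparison, so these falls have no share beside them. The summed T and NK cell value was 7.98 in Double KO, 3.63 in Shp2 KO and 11.2 in IkkB KO, against 5.65 in WT liver, so it was highest in IkkB KO, where the members' sum was lowest. The adult haemoglobin rows, a measure of blood left in the tissue, were taken from the planned list of erythroid and red blood cell genes. They summed to 254 in Double KO, 309 in Shp2 KO and 188 in IkkB KO, against 214 in WT liver. Of that whole list 10 genes were tested in Double KO against WT liver, 0 rose and 1 fell. Of 8 stellate cell and fibroblast genes tested 5 rose, among them Col1a1, a fibrillar collagen, at 20.7 in Double KO against 3.77 in WT liver (q = 0.000955, authors' deposited table).

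**Figure D4:**
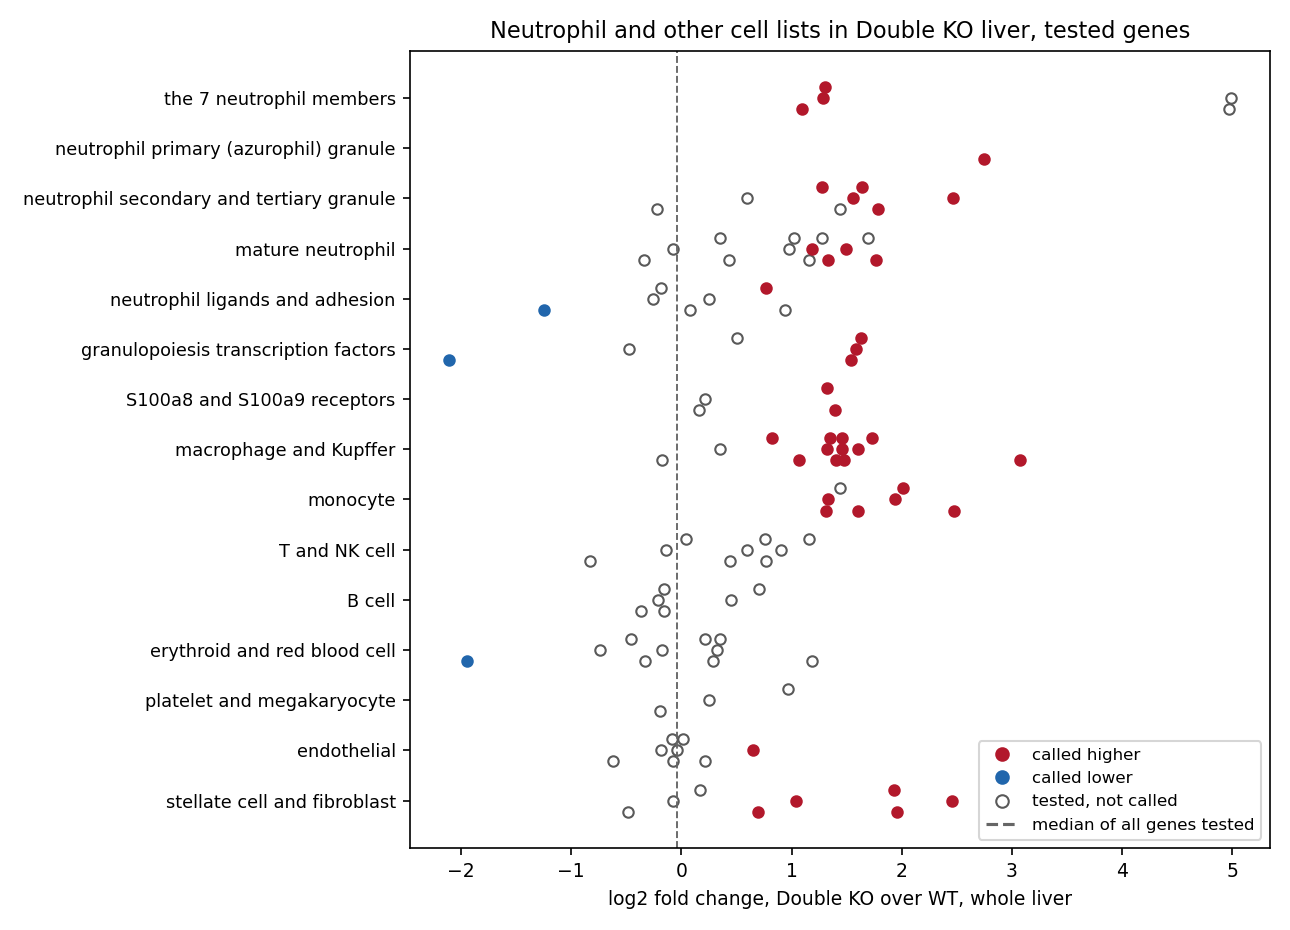
Log2 fold change of Double KO over WT in whole liver (horizontal axis) for every tested gene of the members and 14 other lists, red where called higher, blue where called lower and open where tested and not called; the dashed line is the median of all genes tested at -0.04. Called genes of the macrophage and monocyte lists lie right of the line, as do the 3 called members, and no T, NK or B cell gene is called.

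In hepatocyte preparations markers of several non-hepatocyte lists were above WT. Of all genes tested against WT hepatocytes, 9.04% rose in Double KO and 7.6% in IkkB KO. In Shp2 KO 11.7% were called in either direction, and the share that rose was not counted. Of 13 macrophage genes 13 rose in Double KO hepatocytes against WT, 10 in Shp2 KO and 12 in IkkB KO, and the sum was 317 in Double KO, 249 in Shp2 KO and 318 in IkkB KO, against 105 in WT. The adult haemoglobin sum was 1.02 to 3.22 in the 4 hepatocyte groups, and 188 to 309 in the separately made liver table. Of 8 endothelial genes tested against WT hepatocytes, 6 rose in Double KO, 0 in Shp2 KO (with 0 at an unadjusted p under 0.05 by Cuffdiff) and 8 in IkkB KO, and their sum was 67.6 in Double KO, 41.4 in Shp2 KO and 73.5 in IkkB KO, against 36.4 in WT. Of the stellate cell and fibroblast genes, 6 of 8 tested rose in Double KO, 4 of 7 in Shp2 KO and 7 of 7 in IkkB KO, and their sum was 61.9 in Double KO, 54.8 in Shp2 KO and 110.4 in IkkB KO, against 27.6 in WT. In each hepatocyte group 0 genes of these 3 lists were listed at 0. The part of these cells in the Csf3r calls of the hepatocyte table was not tested.

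Likeness of pattern was measured as the Pearson correlation of log2(value + 0.1) over the 8 groups, each table centred on its own mean, and is a description since groups of a table share a normalization. S100a8 and S100a9 were each closest to the other among the members (r = 0.88), and Ngp and Camp likewise (r = 0.95). Ltf was closest to Ngp (0.93), Csf3r to S100a9 (0.80) and Mmp8 to S100a8 (0.82), while S100a8 and Camp were least alike (0.46). Among 11632 genes that reached a value of 1 in some group, the 5 other genes with the highest mean correlation to the 7 members were Abhd2, Ctsk, Git1, Pros1 and Lyl1 (0.86 to 0.87). Ctsk, the protease cathepsin K, was 2.21 in Double KO, 1.03 in Shp2 KO and 0.851 in IkkB KO, against 0.791 in WT liver. Lyl1, a transcription factor of blood cells, was 1.22 in Double KO, 0.551 in Shp2 KO and 0.556 in IkkB KO, against 0.586 in WT liver. Abhd2 was 8.41 in Double KO and 2.81 in WT liver, Pros1 32.3 and 20.4, and Git1 5.31 and 4.29. Over the hepatocyte groups Abhd2 was 11.2 to 16.4, Pros1 19.7 to 23.3 and Git1 2.83 to 3.13. Ctsk was 0.252 to 0.396 there and Lyl1 0.190 to 0.317. The closest genes were therefore not only genes of blood cells.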

How the data were processed

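Libraries were made with the Illumina TruSeq v2 kit, and FastQC, Cuffdiff and build mm9 are named in the submitters' processing notes; the sources used here give no aligner, annotation, version or strand, so values of overlapping genes are uncertain. The authors deposited 1 Cuffdiff table per preparation. Its expression values, 1 per gene and genotype, carry no unit name in the header (other) and were taken as FPKM by convention; 0 columns hold a value per sample, so depth and its precision are unknown. The deposited log2 fold changes are log2 ratios of these values with no pseudocount; that of Shp2 KO against IkkB KO was turned round. The deposited test statistic, a score, was not used. P-values and q-values are the authors' deposited Cuffdiff tests: adjusting the p-values over all 6 liver pairs gave back the deposited q (largest difference 5.27e-07), and over the 5 hepatocyte pairs did not (0.284). Shp2 KO against IkkB KO was analysed in liver alone.

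Calls used the authors' q-value under 0.05, a pair tested by Cuffdiff and, in either genotype, a value no lower than 0.1. Members and the 16 other lists were chosen with earlier results of these data known. All members are named; other lists give up to 4 called genes per comparison, largest fold first, plus Cxcr2, Mmp9, Mpo, Elane, Lcn2, Csf3, Cxcl1, Cxcl2 and Cxcl5; Prtn3 and Cebpe in hepatocytes fall under the same rule. Alternatives were a q-value under 0.01, no minimum value or one of 1, a log2 fold change of at least 1, Benjamini-Hochberg adjustment within a comparison, pseudocounts of 0.1 and 1, and centring on the median. The call counting was tested on simulated data. Python 3.11.15 with numpy 2.4.6, pandas 2.3.3 and matplotlib 3.10.9 was used.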

Additional observations from a re-analysis of the deposited data

How the results depend on the processing

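The number of members called stayed within 1.5 times of that reported in all 11 comparisons with no minimum value and with a log2 fold change of at least 1. With Benjamini-Hochberg adjustment within each comparison it did so in 10, and the exception was IkkB KO against WT liver, where 0 members were called in place of 1. With a q-value under 0.01 it was 0 in IkkB KO against WT liver, 2 in Double KO against IkkB KO liver in place of 4, 2 in Double KO against Shp2 KO liver in place of 5, and 0 in Double KO against WT hepatocytes in place of 1. With a value of at least 1 it was 3 in Double KO against Shp2 KO liver in place of 5, and 0 in place of 1 in both IkkB KO against WT and Double KO against WT hepatocytes, since Csf3r lies below 1 there. A pseudocount cannot change the sign of a fold change but shrank those of the granule genes: in Double KO against WT liver, 0.1 and 1 gave log2 values of 2.83 and 0.81 for Ngp, 2.698 and 0.73 for Camp, 1.64 and 0.33 for Ltf and 0.94 and 0.16 for Mmp8, in place of 4.97, 4.99, 3.53 and 2.21. For S100a8 it gave 1.29 and 1.17, for S100a9 1.27 and 1.15, and for Csf3r 0.99 and 0.54, in place of 1.30, 1.29 and 1.09. Centring moved log2 values by at most 0.04. No paired analysis was possible because the tables hold no value per replicate, and leaving out each replicate in turn was not run for the same reason. Depth is unknown, so members below the program's testing minimum (Ltf and Mmp8 in both tables, Ngp and Camp in hepatocytes) give levels only.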

Other observations

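The sum of the mature neutrophil list was almost all Wfdc21, a gene of the whey acidic protein family, in both preparations. Wfdc21 was 1663 in Double KO, 1257 in Shp2 KO and 1243 in IkkB KO, against 1234 in WT liver. Hdc, the enzyme that makes histamine, was 5.74 in Double KO, 6.13 in Shp2 KO and 6.74 in IkkB KO, against 7.29 in WT liver. Without these 2 genes, a choice made after seeing the data, the list summed to 18.9 in Double KO, 10.6 in Shp2 KO and 8.75 in IkkB KO, against 9.31 in WT liver, and to 6.33 in Double KO, 6.17 in Shp2 KO and 6.05 in IkkB KO, against 2.13 in WT hepatocytes. In both preparations the sum was highest in Double KO, but in hepatocytes all 3 knockouts lay close together, above WT.

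Retnlg, a resistin-like gene of neutrophils, was 1.85 in Double KO, 0.569 in Shp2 KO and 0.347 in IkkB KO, against 0.574 in WT liver. It rose against Shp2 KO (q = 0.0451) and IkkB KO (q = 0.0270) and missed the threshold against WT (q = 0.0503) in the authors' deposited table.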
